A study of Mus musculus with 8 samples.

Results

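Interferon response genes were followed as a group of 32 genes in mouse kidney proximal tubule cells given the FXR agonist GW4064. Members were taken by symbol, as every non-control probe whose transcript accession belongs to a listed gene. Of the 32 genes, 30 had a matched probe, 38 probes in all, and all 30 were tested among 14476 genes. No probe accession matched the gene table for Mx1 and Mx2, which were not analysed here. The cells came from the kidney cortex of C57/BJ mice, males at an age of 6 weeks, were digested with trypsin, passed through a strainer and grown to confluence, and then stood for 24 h in serum-free medium with DMSO, the solvent, or with 1 µM GW4064, 4 RNA samples in each of the 2 groups. The labels name no genotype and no treatment before the vehicle or the agonist, and the plated material is described as mostly tubules, so other cortical cells could be present. They do not say how many animals or dishes stand behind the 4 samples of a group, so a p-value speaks of the spread among these 4 alone, and that spread may be technical.

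Interferons are cytokines that cells release on sensing viral or misplaced nucleic acid. A type I or type III interferon binds its receptor, the receptor's JAK kinases phosphorylate STAT proteins, and a complex of STAT proteins with IRF9 enters the nucleus and binds the interferon-stimulated response element. The genes this turns on block viral replication, sense RNA, present peptides and feed back on the pathway, and many of them are expressed at a low tonic level without infection. In the kidney the tubular epithelium can both sense nucleic acid and respond to interferon.

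Each array gave 1 brightness per probe, written here as relative log2 signal, the log2 of the scanner's processed signal minus the array's own 75th percentile. Between 61.4% and 65.7% of probes were well above background, and the 75th percentile was a signal of 1626 ± 187 on the DMSO arrays and 1412 ± 207 on the GW4064 arrays (both SD, n = 4). The agonist's own targets separated the groups: Slc51a and Slc51b, the subunits of the bile acid exporter, were 120.6-fold and 10.6-fold higher with GW4064, and Fabp6, a bile acid carrier, was well above background on 0 of the 4 DMSO arrays and on 4 of the 4 GW4064 arrays. The 7 tested genes of the list of FXR and its induced targets summed to between 13.8 and 15.4 times the 75th percentile signal on the DMSO arrays, with DMSO replicate 3 at 15.4, and to between 76.2 and 83.3 on the GW4064 arrays. Each of the 2 slides held 2 DMSO and 2 GW4064 arrays, replicates 1 and 2 on slide 1 and replicates 3 and 4 on slide 2. On both slides the DMSO arrays came before the GW4064 arrays, so position on the slide and treatment cannot be told apart.

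With GW4064, 8 of the 30 interferon response genes fell and 0 rose, by limma with Benjamini-Hochberg adjustment over all 14476 genes and a threshold of 0.05. The share of all genes that passed was 8.95% lower and 11.8% higher. The 8 were the antiviral effectors Oas2, Rsad2, Ifit1, Cmpk2 and Oasl1, the ISG15 ligase Herc6, and Irf9 and Stat2, subunits of the interferon-activated transcription complex, and they were between 1.22-fold and 2.38-fold lower. Before adjustment 16 members were lower and 1, Irf1, was higher at p under 0.05, against 15% and 19.4% of all genes. The log2 difference was under 0 in 26 of the 30 members, against 45.8% of all genes, and its median was -0.36 over the members and 0.015 over all genes. GW4064 and DMSO values did not overlap, with GW4064 lower, in 4 members (Herc6, Irf9, Oasl1 and Oas2), against 11.2% of all genes.

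DMSO replicate 3 was the lowest of the DMSO arrays for 30 of the 30 members, against 24.9% of all genes, and the number of members that passed depended on it. Without that array 20 members were lower and 0 higher, against 8.36% of all genes lower. The 20 held all of the 8 and added Dhx58, Gbp2, Gbp3, Ifi44, Ifit2, Ifit3, Irf7, Isg15, Oasl2, Rtp4, Usp18 and Xaf1. Both the 30 of the 30 and the leaving out of this array were set down with its low values already known. The members share that array and are not separate observations, so the 30 of the 30 is a description. The 20 are likewise a description of the other 7 arrays. The same holds for every adjusted p-value and every pass without DMSO replicate 3 given below for single genes. The count was 4 without DMSO replicate 1, 3 without DMSO replicate 2 and 3 without DMSO replicate 4. It was 4, 4, 4 and 5 without GW4064 replicates 1, 2, 3 and 4. The share of all genes lower was 8.95% with all arrays, to which 3 of 30 members is close, and was not counted in these fits. In these fits 2076 to 2827 of the 14476 genes passed in either direction, against 3006 with all arrays. Oasl1, Herc6 and Irf9 passed in each of these fits and in the one without DMSO replicate 3, while Oas2, Rsad2, Ifit1, Cmpk2 and Stat2 missed the threshold in at least 3 of them.

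**Figure D1:**
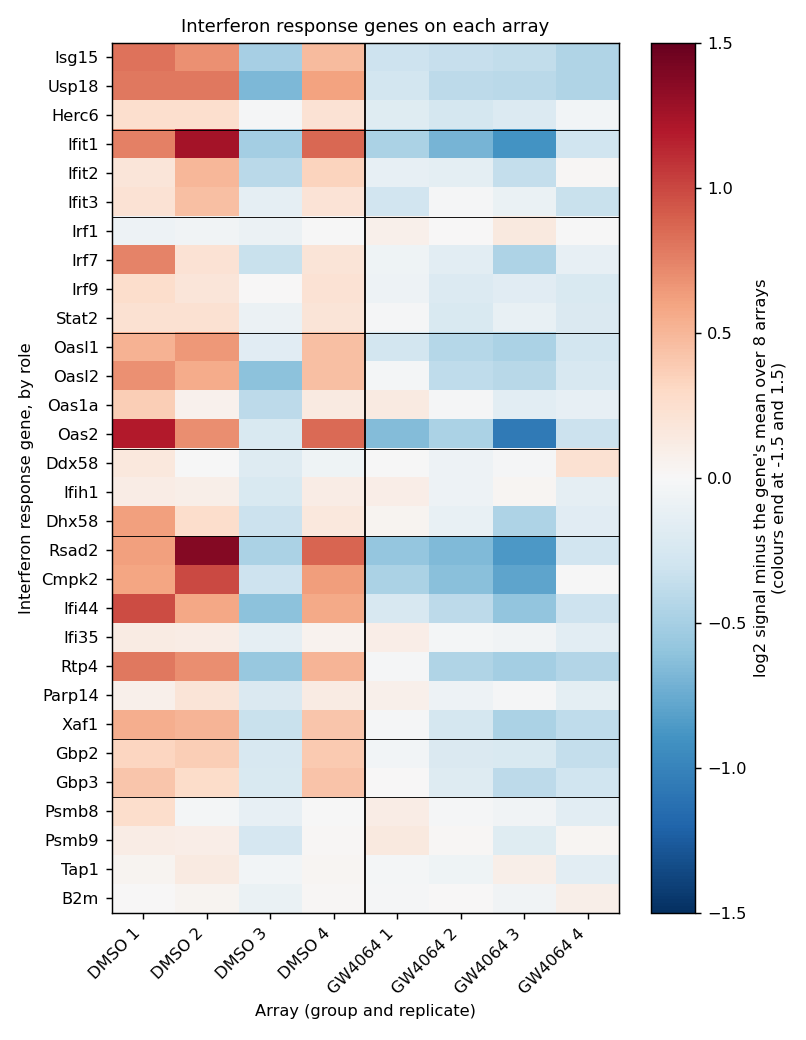
Relative log2 signal of the 30 tested interferon response genes (rows, grouped by role) on each of the 8 arrays (columns), each gene minus its mean over the 8 arrays, with colours ending at -1.5 and 1.5. DMSO replicates 1, 2 and 4 are mostly red and the 4 GW4064 arrays mostly blue, and DMSO replicate 3 is the lowest DMSO array in all 30 rows.

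The 250 bases before the start site were searched in RefSeq's promoter windows of GRCm38.p6 for GAAA, any 2 bases, and GAAA again, the core of the interferon-stimulated response element, on both strands. A window was matched for 25 of the 32 members, and 9 of these genes (36%) held the motif, against 3.46% of the 27025 genes with a window and 2.98% of all 32851 windows. The 9 were Isg15, Ifit1, Ifit3, Stat2, Oas1a, Rsad2, Gbp2, Gbp3 and B2m. With GW4064, 3 of the 9 fell, and 7 of the 9 were lower without DMSO replicate 3. Of the 16 tested members with a window and no match the counts were 4 and 9. Over all genes the shares lower were 8.95% with all arrays and 8.36% without that array. A link between the motif and the fall was not tested. The motif TTCNNNGAA, the core bound by STAT dimers, was in 4 of the 25 members (16%), Ifit2, Irf1, Oas1a and Psmb8, against 8.13% of the 27025 genes and 7.02% of all windows; in Oas1a, which held both motifs, they did not overlap. A match is a string of letters and was not shown to be a bound site.

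The stretches around the matches are shown for the 6 members with a match and the smallest p, which differ in role. Most members with a window, 16 of the 25, held no match, among them Irf9, Oasl1, Herc6 and Cmpk2. They run 5′ to 3′ in the direction of the gene, in GRCm38.p6 coordinates from RefSeq, with the matched letters in capitals. All matches lay on the opposite strand, so the motif reads here as its reverse complement.

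Ifit1, chr19:34640765-34640833, plus strand: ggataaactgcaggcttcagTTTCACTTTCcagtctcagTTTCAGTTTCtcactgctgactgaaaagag
Rsad2, chr12:26456543-26456592, minus strand: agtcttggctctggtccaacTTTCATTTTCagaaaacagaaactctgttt
Stat2, chr10:128270256-128270305, plus strand: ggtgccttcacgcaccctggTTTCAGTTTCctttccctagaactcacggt
Gbp2, chr3:142620584-142620633, plus strand: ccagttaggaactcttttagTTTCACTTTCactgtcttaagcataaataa
Ifit3, chr19:34583353-34583436, plus strand: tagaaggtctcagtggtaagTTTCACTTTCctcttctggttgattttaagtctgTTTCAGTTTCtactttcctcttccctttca
Gbp3, chr3:142559979-142560034, plus strand: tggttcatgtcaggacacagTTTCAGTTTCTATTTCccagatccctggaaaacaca

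The matches began between 222 bases (Stat2) and 39 bases (Gbp3) before the start site. Ifit1 and Ifit3 each held a separate pair of matches, and the matches of Gbp3 overlapped. The window of Stat2 held 1 match, so the motif stood before the gene of a subunit of the complex as well as before effector genes.

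Among the transcription factors Irf9 and Stat2 fell, and Irf7 and Irf1 did not pass. Irf9, the DNA-binding subunit of the interferon-activated complex, read 1.59, 1.51, 1.34 and 1.55 in DMSO replicates 1 to 4 and 1.26, 1.12, 1.16 and 1.10 in GW4064 replicates 1 to 4 (relative log2 signal, as in the values that follow). Every GW4064 array was below every DMSO array, replicate 3 included. The log2 difference was -0.34 ± 0.063 (SE), or 1.27-fold lower (limma, adjusted p = 0.00702), and -0.39 ± 0.051 without DMSO replicate 3. Stat2, the STAT specific to type I and type III interferon signalling, read 0.96, 0.96, 0.64 and 0.92 with DMSO and 0.71, 0.50, 0.62 and 0.51 with GW4064. DMSO replicate 3 lay among the GW4064 arrays, below GW4064 replicate 1, while the other DMSO arrays were above all of them. Stat2 was 1.22-fold lower (-0.28 ± 0.083, limma adjusted p = 0.0455), and -0.36 ± 0.060 (adjusted p = 0.00632) without DMSO replicate 3. Stat2 passed under 10 of the 22 alternative settings and missed the threshold under 12, among them median centring and no filter on dim probes (limma adjusted p = 0.0588 and 0.0909), with adjusted p between 0.00632 and 0.629 over the 22.

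Irf7, the factor that amplifies type I interferon production, read -0.54, -1.06, -1.61 and -1.09 with DMSO and -1.34, -1.43, -1.73 and -1.40 with GW4064. DMSO replicate 1 was the highest and DMSO replicate 3 was inside the GW4064 range. The difference was -0.40 ± 0.20 (limma adjusted p = 0.205), and -0.58 ± 0.15 (adjusted p = 0.038) without DMSO replicate 3. Irf1, which responds strongly to interferon gamma, was at 1.96 ± 0.038 with DMSO and 2.07 ± 0.068 with GW4064 (both SD, n = 4). Its difference, 0.11 ± 0.044, was the only one above 0 among the members at unadjusted p under 0.05 and did not pass (adjusted p = 0.132). Its DMSO replicate 3 value was only -0.042 from the mean of the other DMSO arrays, the smallest such distance among the members.

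In the ISG15 system, which attaches a ubiquitin-like protein to other proteins, Herc6 fell, and Isg15 and Usp18 missed the threshold with all arrays and passed it without DMSO replicate 3. Herc6, the main mouse ligase for ISG15, read -2.65, -2.65, -2.92 and -2.69 in DMSO replicates 1 to 4 and -3.08, -3.17, -3.11 and -2.95 in GW4064 replicates 1 to 4. In DMSO replicate 3 it was low, but still just above GW4064 replicate 4, so the groups did not overlap. Herc6 was 1.27-fold lower (-0.35 ± 0.074, limma adjusted p = 0.0127). Isg15, the modifier itself, read 2.21, 2.08, 0.89 and 1.86 with DMSO and 1.08, 1.05, 1.02 and 0.94 with GW4064. Here DMSO replicate 3 was the lowest of the 8 arrays, and the GW4064 arrays lay close together (1.02 ± 0.061, SD, n = 4). With all arrays the difference was -0.74 ± 0.26 (limma adjusted p = 0.0805), and without DMSO replicate 3 it was -1.03 ± 0.083, or 2.04-fold lower (adjusted p = 0.000279). A second Isg15 probe, of lower brightness, differed by -0.77.

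Usp18, the protease that removes ISG15 and also damps signalling at the type I receptor, read -0.65, -0.64, -2.11 and -0.83 with DMSO and -1.71, -1.82, -1.85 and -1.88 with GW4064. Here too DMSO replicate 3 was the lowest of all 8 arrays, -1.41 from the mean of the other DMSO arrays, and the other 7 arrays fell into the 2 treatment groups with no overlap. With all arrays Usp18 differed by -0.76 ± 0.31 (limma adjusted p = 0.12), and without DMSO replicate 3 by -1.11 ± 0.066 (adjusted p = 6.16e-05). That array was left out with its low value known, so the second p-value is a description of the other 7 arrays.

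Of the IFIT proteins, which bind foreign RNA and stop its translation, Ifit1 fell and Ifit2 and Ifit3 did not pass with all arrays. Ifit1 read -1.86, -1.37, -3.12 and -1.76 in DMSO replicates 1 to 4 and -3.09, -3.31, -3.51 and -2.92 in GW4064 replicates 1 to 4. DMSO replicate 3 fell among the GW4064 arrays, and the other DMSO arrays were above all of them by more than the range within either of those sets. Ifit1 was 2.27-fold lower (-1.18 ± 0.34, limma adjusted p = 0.0435), and 2.92-fold lower (-1.55 ± 0.17) without DMSO replicate 3. Ifit3 read 2.75, 2.98, 2.39 and 2.73 with DMSO and 2.24, 2.51, 2.43 and 2.19 with GW4064, with DMSO replicate 3 between GW4064 replicates 1 and 3. It differed by -0.37 ± 0.12 (adjusted p = 0.0725), and by -0.47 ± 0.10 (adjusted p = 0.0155) without DMSO replicate 3. Ifit2 went from -0.088 ± 0.40 (SD, n = 4) with DMSO to -0.39 ± 0.16 with GW4064, a difference of -0.30 ± 0.18 (adjusted p = 0.287), and of -0.49 ± 0.11 (adjusted p = 0.0181) without that array. Ifit3 has a near-identical copy, Ifit3b, and the probe sequences were not used here, so its signal may include both.

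The oligoadenylate synthetase family makes a small nucleotide messenger on binding double-stranded RNA, and its OASL members carry ubiquitin-like domains. Oas2 and Oasl1 fell, Oasl2 missed the threshold with all arrays and passed it without DMSO replicate 3, and Oas1a passed in neither fit. Oas2 read -2.10, -2.60, -3.52 and -2.43 in DMSO replicates 1 to 4 and -3.93, -3.76, -4.34 and -3.61 in GW4064 replicates 1 to 4. The groups did not overlap, with DMSO replicate 3 just above GW4064 replicate 4. Oas2 had the largest difference of the members with all arrays, -1.25 ± 0.29 or 2.38-fold lower (limma adjusted p = 0.0193), and differed by -1.53 ± 0.19 without DMSO replicate 3. It missed the threshold without DMSO replicate 2 (adjusted p = 0.0512), without DMSO replicate 4 (adjusted p = 0.0543) and without GW4064 replicate 1 (adjusted p = 0.0503).

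Oasl1, which holds back translation of Irf7, read 1.54, 1.67, 0.85 and 1.47 with DMSO and 0.74, 0.60, 0.54 and 0.75 with GW4064, again without overlap. It was 1.65-fold lower (-0.73 ± 0.16, limma adjusted p = 0.0167). Oasl2, its relative, read -0.69, -0.82, -1.98 and -0.92 with DMSO and -1.41, -1.75, -1.79 and -1.62 with GW4064, so that DMSO replicate 3 was the lowest of all arrays. Its difference was -0.54 ± 0.27 (adjusted p = 0.195), and -0.83 ± 0.10 (adjusted p = 0.00176) without that array. Oas1a, a catalytic synthetase, overlapped between the groups in both fits, at 1.40 ± 0.32 (SD, n = 4) with DMSO and 1.32 ± 0.14 with GW4064, a difference of -0.086 ± 0.15 (adjusted p = 0.729). Close copies of Oas1a exist and its probes may read them too.

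**Figure D2:**
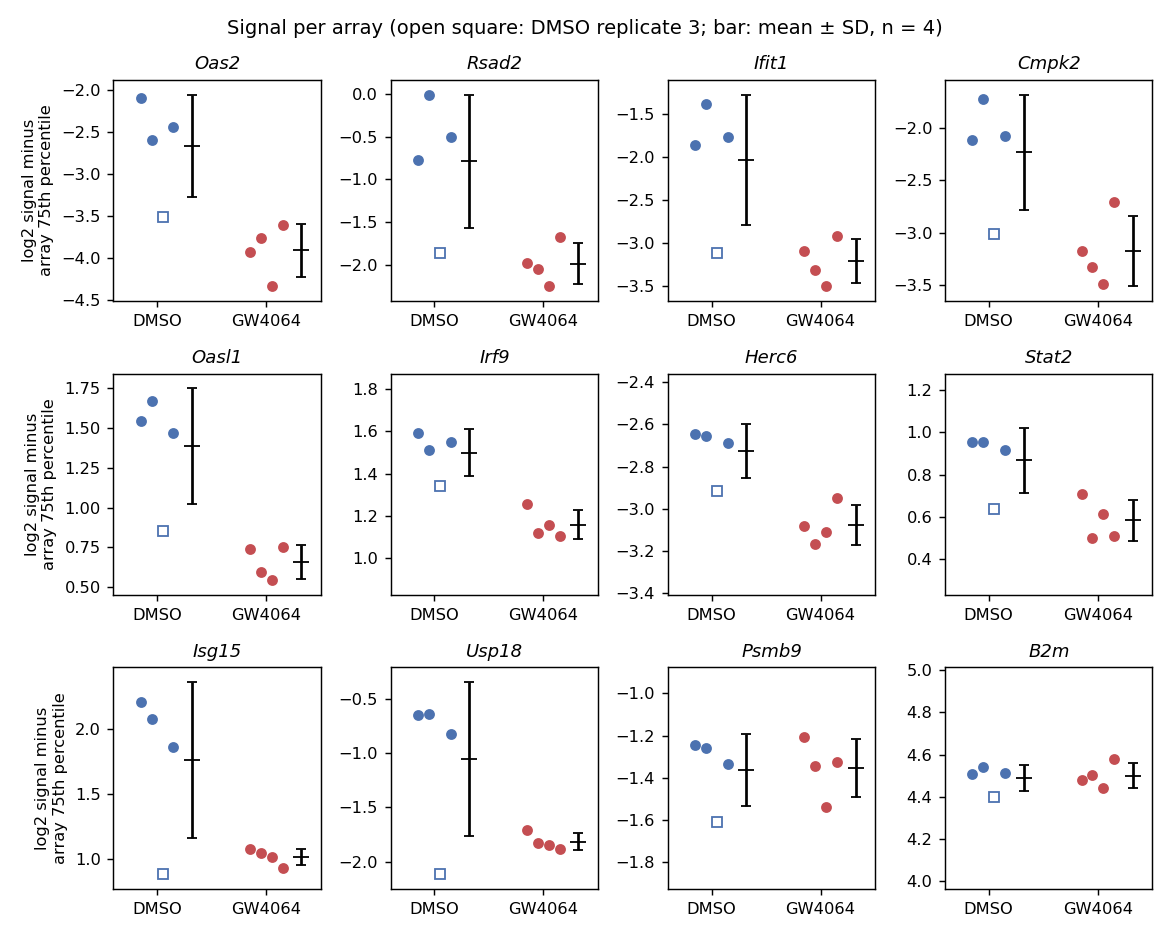
Relative log2 signal (log2 signal minus the array's 75th percentile) of 12 interferon response genes on each array, with DMSO in blue, GW4064 in red and DMSO replicate 3 as an open square, and the mean ± SD (n = 4) as a bar beside each group. For Isg15 and Usp18 the open square is the lowest of the 8 points, for Oas2, Oasl1, Irf9 and Herc6 it stays above the red points, and for Psmb9 and B2m the groups overlap.

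Of the other antiviral effectors Rsad2 and Cmpk2, neighbours on chromosome 12 that share regulation by interferon, both fell. Rsad2, or viperin, a radical enzyme that makes a chain-terminating nucleotide, read -0.78, -0.013, -1.86 and -0.51 in DMSO replicates 1 to 4 and -1.97, -2.05, -2.25 and -1.67 in GW4064 replicates 1 to 4. DMSO replicate 3 lay inside the GW4064 range, and among the other DMSO arrays replicate 2 was the highest. Rsad2 was 2.29-fold lower (-1.20 ± 0.35, limma adjusted p = 0.0441), and 2.93-fold lower (-1.55 ± 0.20) without DMSO replicate 3. Cmpk2, a mitochondrial nucleotide kinase, read -2.12, -1.72, -3.02 and -2.08 with DMSO and -3.18, -3.33, -3.50 and -2.71 with GW4064. GW4064 replicate 4 was above DMSO replicate 3, and it was also the highest GW4064 array for Ifit1, Oas2 and Rsad2. Cmpk2 was 1.92-fold lower (-0.94 ± 0.28, adjusted p = 0.045), and a second probe differed by -1.0. Rsad2, Cmpk2 and Ifit1 each missed the threshold without any 1 of DMSO replicates 1, 2 and 4 or GW4064 replicates 1, 2 and 3, with limma adjusted p between 0.083 and 0.106; without GW4064 replicate 4 Cmpk2 passed and Rsad2 and Ifit1 did not.

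Ifi44, Rtp4 and Xaf1 missed the threshold with all arrays and passed it without DMSO replicate 3. Ifi44, an antiviral protein, read -2.03, -2.42, -3.62 and -2.44 with DMSO and -3.24, -3.40, -3.59 and -3.31 with GW4064, and its difference went from -0.76 ± 0.30 (limma adjusted p = 0.116) to -1.09 ± 0.12 (adjusted p = 0.0012) without that array. Rtp4, a chaperone of membrane receptors, read 0.79, 0.70, -0.57 and 0.51 with DMSO and -0.017, -0.45, -0.51 and -0.44 with GW4064, and its difference went from -0.71 ± 0.29 (adjusted p = 0.119) to -1.02 ± 0.13 (adjusted p = 0.00192). For both genes DMSO replicate 3 was the lowest of all 8 arrays, and GW4064 replicate 1 was the highest GW4064 array. Xaf1, which promotes apoptosis, differed by -0.56 ± 0.20 (adjusted p = 0.0813) and by -0.77 ± 0.11 (adjusted p = 0.00276) without it. Parp14, an ADP-ribosyltransferase, and Ifi35, which forms a complex with Nmi, did not pass in either fit, at -0.078 ± 0.092 and -0.076 ± 0.074 with all arrays and -0.17 ± 0.063 and -0.13 ± 0.064 without DMSO replicate 3.

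The guanylate-binding proteins, GTPases that act at pathogen vacuoles, did not pass with all arrays, though both were lower at unadjusted p under 0.05 by limma. Gbp2 read -0.039, 0.013, -0.60 and 0.037 in DMSO replicates 1 to 4 and -0.40, -0.57, -0.59 and -0.71 in GW4064 replicates 1 to 4. DMSO replicates 1, 2 and 4 lay close to 0, and replicate 3 was below GW4064 replicates 1, 2 and 3. Gbp2 differed by -0.42 ± 0.14 (limma adjusted p = 0.0721) and by -0.57 ± 0.073 (adjusted p = 0.002) without DMSO replicate 3. Gbp3 differed by -0.44 ± 0.15 (adjusted p = 0.079) and by -0.59 ± 0.10 (adjusted p = 0.00586), and its difference was alike on the slides, -0.44 on slide 1 and -0.45 on slide 2.

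None of the 3 cytosolic RNA sensors passed with all arrays by limma, and 0 did at unadjusted p under 0.05. Ddx58, which encodes RIG-I, was at 2.04 ± 0.15 (SD, n = 4) with DMSO and 2.09 ± 0.14 with GW4064, and Ifih1, which encodes MDA5, at -0.015 ± 0.17 and -0.054 ± 0.10. Their differences were 0.059 ± 0.090 (limma adjusted p = 0.685) and -0.039 ± 0.088 (adjusted p = 0.792), and the second probe of each gene had the opposite sign, -0.068 for Ddx58 and 0.037 for Ifih1. Dhx58, which encodes LGP2, a regulator of the other sensors, read -2.75, -3.10, -3.69 and -3.20 with DMSO and -3.33, -3.48, -3.83 and -3.53 with GW4064. DMSO replicates 1, 2 and 4 were above all GW4064 arrays, and DMSO replicate 3 lay inside the GW4064 range. The Dhx58 difference was -0.36 ± 0.19 (limma adjusted p = 0.224), and it passed without DMSO replicate 3 (-0.52 ± 0.14, adjusted p = 0.0424).

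None of the 4 members that serve antigen presentation passed by limma with or without DMSO replicate 3, and with all arrays 0 were under an unadjusted p of 0.05. Psmb8 and Psmb9, catalytic subunits of the immunoproteasome, differed by -0.058 ± 0.088 and 0.0090 ± 0.10, Tap1, a subunit of the peptide transporter, by -0.081 ± 0.061, and B2m, the light chain of class I molecules, by 0.011 ± 0.047. B2m read 4.51, 4.54, 4.40 and 4.51 with DMSO and 4.48, 4.51, 4.44 and 4.58 with GW4064, a range within which the groups overlapped. The signs for Psmb9 and B2m turned to below 0 under quantile normalization, median centring and without DMSO replicate 3, and no value of either passed.

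**Figure D3:**
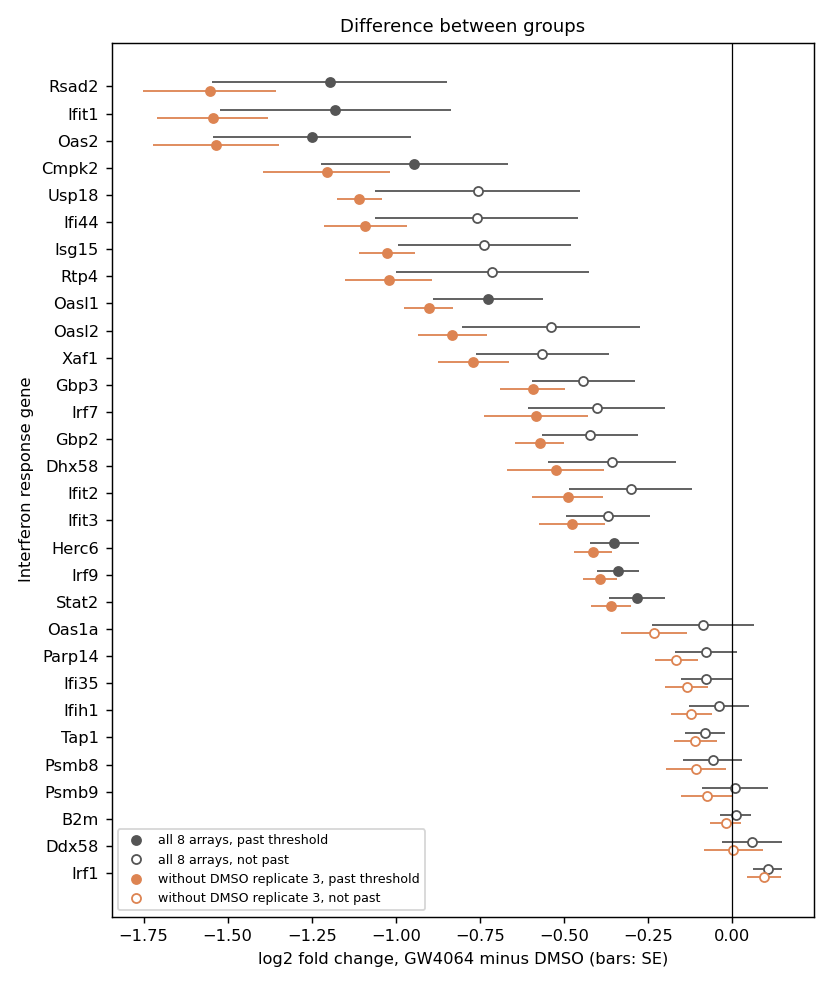
Log2 fold change (GW4064 minus DMSO, bars SE) of the 30 interferon response genes from limma with all 8 arrays (grey) and without DMSO replicate 3 (orange), filled where the adjusted p was under 0.05. There are 8 filled grey points and 20 filled orange ones, and the antigen presentation genes lie near 0 in both.

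DMSO replicate 3 took a place of its own among the controls for these genes. Averaged over the 30 members, the relative log2 signal was 0.0022, -0.016 and -0.11 in DMSO replicates 1, 2 and 4, -0.71 in DMSO replicate 3, and -0.53, -0.65, -0.74 and -0.61 in GW4064 replicates 1 to 4. DMSO replicate 3 lay within the range of the GW4064 arrays, far from the other DMSO arrays. Its distance from the mean of the other DMSO arrays had a median of -0.60 over the members and 0.0021 over all genes. The SD among the DMSO arrays had a median of 0.32 over the members with replicate 3 and 0.11 without it, against 0.076 and 0.070 over all genes, and the members' SD among the GW4064 arrays had a median of 0.14.

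DMSO replicate 3 was at least 0.5 below the other DMSO arrays for 202 of 14476 genes (1.40%), and these held 17 of the 30 members and 10 of 48 further interferon-stimulated genes tested. At 1 or more below there were 39 genes, 9 of them members. In the order of all genes by this distance Ifit1 was the 9th lowest (-1.46), Rsad2 the 11th (-1.42), Usp18 the 12th (-1.41) and Ifi44 the 17th (-1.32), while Tap1 was the 2087th and Irf1 the 4703rd. The size of the shift thus differed widely between members, from -1.46 to -0.042. Of the 20 members lower without this array, DMSO replicate 3 was closer to the GW4064 mean than to the mean of the other DMSO arrays for 20, against 25.9% of the 1210 genes lower in that fit, and it was at or below the highest GW4064 array for 16, against 13.3%. These counts describe 1 array whose low values were already known, and the members on that array are not separate observations. For FXR and its targets DMSO replicate 3 had the highest sum of the DMSO arrays, as given above, and no GW4064 array was near it.

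**Figure D4:**
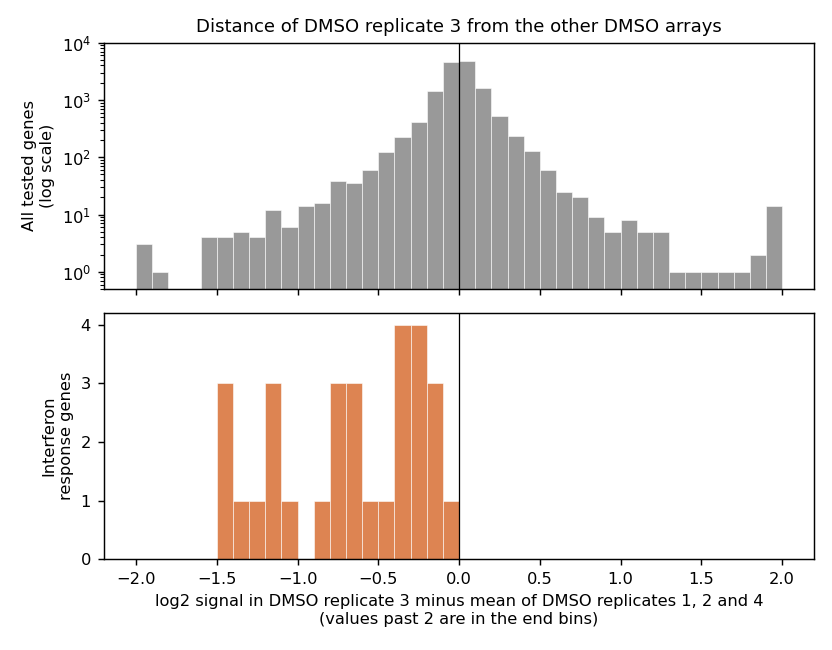
Numbers of genes by the log2 distance of DMSO replicate 3 from the mean of DMSO replicates 1, 2 and 4, in bins of 0.1, for all 14476 tested genes (upper panel, log scale) and the 30 interferon response genes (lower panel). All 30 members lie below 0, and 9 of them at -1 or lower, where all genes number 39.

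The slides gave differences of unequal size. Slide 2 held DMSO replicate 3, and there the mean difference over the members was -0.27, against -0.59 on slide 1. On slide 1 alone 9 members were lower by limma, against 2.48% of all genes. The 9 lacked Irf9, Stat2 and Rsad2 and held Isg15, Usp18, Ifi44 and Xaf1, which missed the threshold with all arrays. On slide 2 alone 0 passed, with 1 at unadjusted p under 0.05, where 220 genes passed in all. For Usp18 the difference was -1.12 on slide 1 and -0.39 on slide 2, for Ifit1 -1.59 and -0.77, and for Irf9 -0.36 and -0.32. The difference between slides was not tested. With the slide as a block 7 members passed, Rsad2 and Cmpk2 being lost (limma adjusted p = 0.0504 and 0.0557) and Xaf1 gained.

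Upstream of the members, no interferon gene passed the test. Of 12 listed ligand genes 10 had a probe, 5 were tested, 0 passed by limma and 0 were under an unadjusted p of 0.05, and Ifnb1, Ifna4, Ifnk, Ifne and Ifng were not well above background on any array. The Ifna genes are near-identical copies, so a probe may read several of them. Among the 6 receptor genes 2 fell, against 8.95% of all genes. Ifngr1, the ligand-binding chain of the interferon gamma receptor, read 3.20, 3.20, 3.25 and 3.24 with DMSO and 2.96, 2.95, 3.0 and 2.98 with GW4064, a difference of -0.25 ± 0.032 (limma adjusted p = 0.00106) in which DMSO replicate 3 was the highest array. Ifnlr1, the chain specific to type III interferon, differed by -0.15 ± 0.043 (adjusted p = 0.0453), and by -0.16 ± 0.049 without DMSO replicate 3, where it missed the threshold (adjusted p = 0.0667). Of 12 JAK-STAT genes and their inhibitors Jak1, the kinase shared by all interferon receptors, fell (-0.47 ± 0.073, adjusted p = 0.00283) and Cish, a feedback inhibitor of STAT5, rose (0.41 ± 0.046, adjusted p = 0.000566). Over all genes 8.95% were lower and 11.8% higher. Both Jak1 and Cish passed without DMSO replicate 3 too, which for Jak1 was -0.034 from the other DMSO arrays.

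Of 21 tested nucleic acid sensors and adaptors 3 fell and 1 rose, against 8.95% of all genes lower and 11.8% higher. Sting1, the adaptor for cytosolic DNA, read 0.75, 0.63, 0.64 and 0.58 with DMSO and 0.12, 0.16, 0.14 and 0.093 with GW4064, with a difference of -0.52 ± 0.044 (limma adjusted p = 0.000127). For this gene DMSO replicate 3 lay inside the range of the other DMSO arrays. Samhd1, a dNTP hydrolase, differed by -0.29 ± 0.059, and Irf2, a repressor that competes with Irf1, rose by 0.21 ± 0.062 (adjusted p = 0.0494). The same 4 passed without DMSO replicate 3.

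Of 48 further interferon-stimulated genes 5 fell and 4 rose, and without DMSO replicate 3 the counts were 18 and 4. Over all genes 8.95% were lower and 11.8% higher with all arrays, so the first counts were near the background or below it, and the shares without that array were 8.36% and 10.8%. Isg20, an exonuclease, differed by -0.65 ± 0.12 and Gbp7 by -0.33 ± 0.073, while Tmem140 (0.34 ± 0.038) and Oas1c (0.31 ± 0.065) rose. DMSO replicate 3 was the lowest DMSO array in 38 of the 48, with a median distance of -0.26. Of 20 tested genes of antigen processing 5 rose and 0 fell by limma (8 and 2 at unadjusted p under 0.05), among them H2-Eb1, a class II chain (0.48 ± 0.036), and Tapbpl (0.37 ± 0.053), Tapbp (0.16 ± 0.042) and Calr (0.23 ± 0.065) of the peptide loading machinery; without DMSO replicate 3 the counts were 3 and 1. Of 14 constitutive proteasome subunits 0 passed by limma, 1 was higher at unadjusted p under 0.05, and that gene, Psmb5 (0.12 ± 0.051, adjusted p = 0.132), encodes a catalytic subunit.

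Markers of other cells were measured beside these genes. The shares over all genes were 8.95% lower and 11.8% higher by limma, and 15% and 19.4% at unadjusted p under 0.05. Of 18 tested markers of leukocytes and macrophages 7 rose and 0 fell by limma (11 and 0 at unadjusted p under 0.05), among them Csf1r (0.75 ± 0.046), Cd14 (0.40 ± 0.042), Itgax (0.98 ± 0.16) and C1qb (0.27 ± 0.059), and Cd3g and Ms4a1 were not well above background on any array. Their summed level was between 52.9 and 63.7 times the 75th percentile signal with DMSO, 59.3 in replicate 3, and between 63.5 and 73.7 with GW4064. The sums overlapped between the groups, and DMSO replicate 3 lay inside the range of the other DMSO arrays. Endothelial markers rose in 4 of 10 cases, such as Esam (0.99 ± 0.064), with sums of 5.51 to 6.43 with DMSO (6.16 in replicate 3) and 6.30 to 7.09 with GW4064. Of 11 fibroblast and pericyte markers 3 rose and 1, Fbln2, fell, and the summed level was 112 in DMSO replicate 3 against 86.8 to 92.0 in the remaining DMSO arrays and 101.5 to 117.1 in the GW4064 arrays.

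Proximal tubule markers, those of the labelled cell type, passed the filter on dim probes in 33 of 35 cases. Of markers with a probe, 10 of 11 for endothelium, 11 of 12 for fibroblasts and pericytes and 18 of 22 for leukocytes also passed. Passing this filter therefore does not tell the cell types apart. With GW4064 18 of the 33 proximal tubule markers rose and 5 fell, against 11.8% higher and 8.95% lower over all genes. Their summed level was 173.4 in DMSO replicate 3 against 200.6 to 222.6 in the remaining DMSO arrays and 232.7 to 277.4 in the GW4064 arrays, and that array was the lowest DMSO array for 30 of the 33, with a median distance of -0.33. Of 10 tested markers of other nephron segments 1, Trpm6, rose and 3, Umod, Kcnj1 and Slc12a3, fell, with sums of 7.14 to 8.59 with DMSO (8.59 in replicate 3) and 8.0 to 9.60 with GW4064. The part of these cell type markers in the interferon values was not tested, and in RNA from whole cultures fewer cells of a type and less RNA per cell cannot be told apart.

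**Figure D5:**
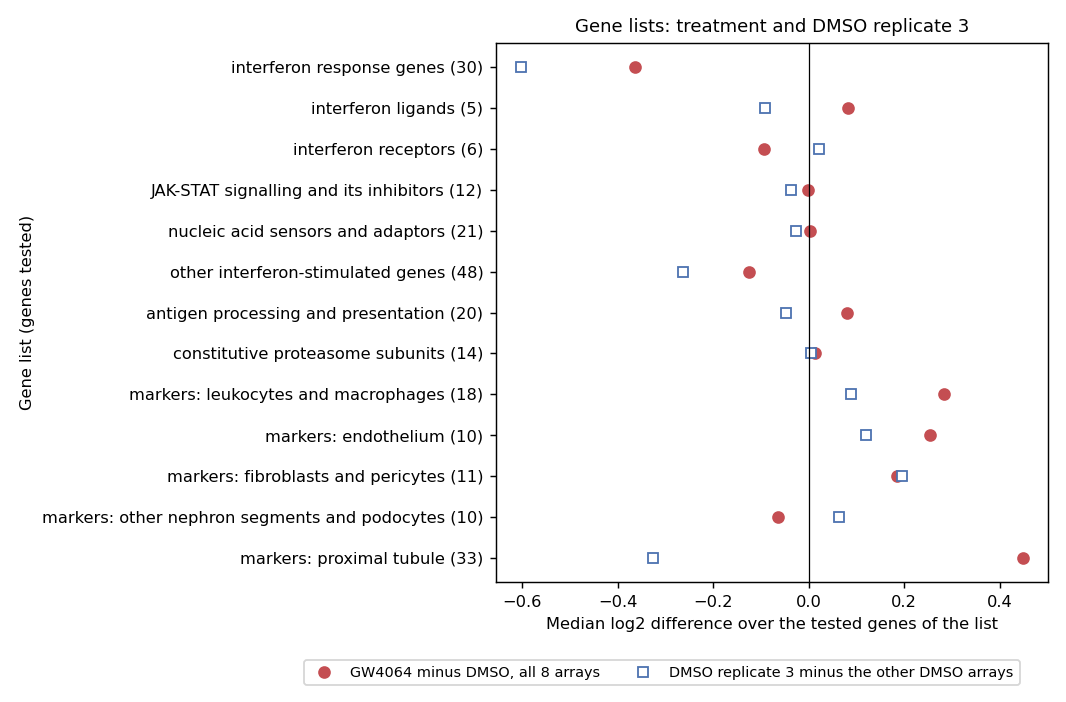
Median log2 difference over the tested genes of each list drawn (number tested in brackets), for GW4064 minus DMSO with all 8 arrays (red points) and for DMSO replicate 3 minus the other DMSO arrays (open squares). The list of FXR and its induced targets is left out. Interferon response genes are lowest on both measures, at -0.36 and -0.60, while proximal tubule markers are at 0.45 and -0.33.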

How the data were processed

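RNA from 4 DMSO and 4 GW4064 samples was hybridised to 8 one-colour Agilent arrays. Per the file headers, the deposited spot intensity had its background subtracted in Feature Extraction 10.7.3.1, and the submitters' processing notes name limma. The authors also deposited a table of log2 values, used as an alternative; every column had a median of 6.598, and how its values were scaled is not given in the sources used here. Of 44397 spots per array, 1377 controls and 98 to 174 outlier spots were left out, and spots of a probe were averaged. The processed signal was put on the log2 scale and set relative to the 75th percentile of its own array. Probe accessions were matched, without versions, to symbols of GRCm38.p6; 27234 of 39429 probes (69.1%) had one. The headers name build mm9, so no array coordinates are given. Probes well above background on at least 4 of 8 arrays were kept, and the brightest kept probe stood for a gene, which left 36 of 38 member probes. Each member's chosen probe was well above background on all 8 arrays.

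The GW4064 and DMSO arrays were compared in R 4.3.3 by limma's lmFit and eBayes (limma 3.58.1), with Benjamini-Hochberg adjustment over 14476 genes and a threshold of 0.05. The fit was tested on simulated data with independent noise for each gene and array. That simulation held no shift shared by many genes on an array, so it does not cover the low values of DMSO replicate 3. Errors of log2 differences are standard errors; the number of arrays limits the precision. Without DMSO replicate 3 there were 3 DMSO and 4 GW4064 arrays. Alternatives covered background, normalization, filters, probe averaging, blocks, slides, weights and leaving out each array. All members were named, and from other lists up to 4 genes with the smallest p and every ligand, receptor and JAK-STAT gene that passed, with Slc51a, Slc51b and Fabp6 as the check of the treatment. The members, the lists and the tests were chosen with earlier results of these data known. Some items of the lists are not reported here.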

Additional observations from a re-analysis of the deposited data

Results flagged for a closer look

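In 8 of 66 groups of 4 arrays (the 30 tested members, their mean, the 75th percentile of the signal and the share of probes well above background, in each treatment group) 1 array stood apart by Dixon's ratio, with a gap to the next array above the 95% critical share of the group's range, where chance gives about 1 in 20. In 7 of the 8 that array was DMSO replicate 3, and it was the low one. Its relative log2 signal was -2.11 for Usp18 (nearest DMSO array -0.83), -2.92 for Herc6 (nearest -2.69), 0.64 for Stat2 (nearest 0.92), -0.26 for Ifih1 (nearest 0.055), -1.48 for Xaf1 (nearest -0.74) and -0.60 for Gbp2 (nearest -0.039). The mean over the 30 members was -0.71 there and -0.11 on the nearest DMSO array. These values share 1 array, so they are not separate observations. For Rtp4, GW4064 replicate 1 was the high one, at -0.017 against -0.44 on the nearest GW4064 array. With 4 arrays a group, members for which a pair of arrays lay apart were not picked out by this ratio.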

How the results depend on the processing

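The count of 8 members lower changed most with single arrays: leaving out 1 array in turn gave 3 to 20. It was 4 without a filter on dim probes, 0 on slide 2 alone and 4 with normexp background correction. Under the other alternatives it was 7 to 10, and 0 members passed as higher under any of the 22. Those that passed with normexp were Rsad2, Usp18, Oasl2 and Xaf1, so of the 8 only Rsad2 was kept there. Over all genes 3006 passed, 120 with normexp, 966 on slide 1 alone, 220 on slide 2 alone and 2076 to 2827 with 1 array left out. The mean member difference stayed between -0.59 and -0.27 on the slides taken alone and between -0.60 and -0.36 with 1 array left out. Limma's normexp fit failed on DMSO replicate 3: its estimated background mean was -1089, against -15.5 to -3.81 on the other arrays, and that array's distance from the other DMSO arrays became 0.010, from -0.67. With the other arrays' mean parameters in its place, an alternative chosen after seeing the data, the distance was -0.58, 8 members were lower and 2255 genes passed. The labels do not say whether replicate numbers pair the samples. Deviations of same-numbered samples had correlations of -0.13, -0.029, 0.19 and -0.022 for replicates 1 to 4. Of the 4, only replicate 3 was best with its own number, and so few values cannot exclude a pairing. With the replicate number as a block 10 members and 2322 genes passed, without Stat2 and with Dhx58, Xaf1 and Gbp3 beside the other 7. Of the 22 alternatives Oasl1 and Herc6 missed the threshold under 2 each, Irf9 under 3, Oas2 under 5, Ifit1 under 10, Rsad2 and Cmpk2 under 11 each and Stat2 under 12. No member that passed changed sign. Signs turned for members near 0 that never passed. Psmb9 was -0.21 with normexp, -0.0057 with quantile normalization, -0.0062 with median centring, -0.025 on slide 1, -0.0040 in the deposited table and -0.074 to 0.070 with 1 array left out. B2m was -0.016, -0.0045, -0.031 and -0.018 under quantile normalization, median centring, slide 1 and the deposited table, -0.0051 with array weights and -0.019 to 0.031 with 1 array left out. Ddx58 was -0.0047 with the mean of its probes, -0.12 on slide 1, -0.019 with the replaced normexp fit and -0.0079 to 0.12 with 1 array left out. Ifih1 was 0.0098 on slide 2, Oas1a was -0.23 to 0.023 and Psmb8 -0.11 to 0.019 with 1 array left out. The cause of these changes was not tested.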
